A study of Mus musculus with 8 samples.

Results

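The TNF and TNF receptor superfamilies were examined in Th17 cells that differed in the form of ROR-γt they carried. Members were taken from the gene symbols of the table, as every symbol that begins with Tnfsf or Tnfrsf followed by a digit, together with Tnf, Lta, Ltb, Ltbr, Fas, Fasl, Cd27, Cd40, Cd40lg, Cd70 and Ngfr. This gave 42 of the 22829 genes listed, of which 17 are ligands and 24 are receptors. The remaining 1, Tnfsf13os, is an antisense RNA that only shares the start of its name. Tnfrsf17, the receptor BCMA of plasma cells, is not among the genes listed here. A mean of at least 10 normalized counts over the 8 samples was reached by 38 members, 15 ligands, 22 receptors and Tnfsf13os.

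CD4+ T cells from the spleens of ROR-γt-/- mice received a lentivirus that encoded mouse ROR-γt, as the WT form in 4 samples and as the K187R form in the other 4, and were grown in Th17-inducing culture before RNA seq. In K187R the lysine that carries the small ubiquitin-like modifier SUMO is replaced by arginine, so that this form is SUMOylation-defective, and the comparison asks which transcripts differ between the forms. Both groups lack the endogenous ROR-γt, and the transduced cells are not a clone. The age of the mice is not given in the sources used here, and a culture time is stated only beside other T helper conditions. The design text mentions mice, 4 WT and 4 mutant, whereas the labels give T cells of ROR-γt-/- mice in both groups, and no label ties a sample to an animal or culture. The p-values therefore measure the spread between these samples, which may be technical.

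Ligands of the TNF superfamily are mostly trimeric proteins made on the cell surface, some of which are shed. Their receptors fall into those with a death domain, which can engage FADD and caspase-8, those that bind TRAF adaptors and activate NF-κB and MAP kinases, and decoys that lack a signalling tail. On activated T cells, receptors such as 4-1BB (Tnfrsf9), OX40 (Tnfrsf4), GITR (Tnfrsf18), CD27 and DR3 (Tnfrsf25) act as costimulators, while Fas and its ligand remove activated cells.

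A normalized count is the number of reads on a gene divided by a size factor of the sample. Between 52456804 and 74676721 reads were counted on genes per sample, and 3 reads, taken as the floor of detection for counting error alone, equalled 2.54 to 3.56 normalized counts. T cell markers, 7 of 7 with reads in every sample, summed to 120436 to 135001 in WT and 127602 to 145377 in K187R. Myeloid markers, 8 of 8, summed to 21971 to 63931 and 37042 to 67132, of which Lyz2 alone took 17025 to 57778, and B cell markers, 6 of 6, summed to 341 to 1388 and 407 to 1749. Of the NK cell markers, 3 of 4 had reads in every sample, and Ncr1 was at 0 in 3 samples. The samples did not group by the form of ROR-γt when clustered over 16944 genes without the members. Sample set 1 held WT replicates 1 and 3 and K187R replicate 1, set 2 held WT replicate 2 and K187R replicates 2 and 3, and set 3 held replicate 4 of each group. In these bulk samples, fewer cells of a type and less RNA per cell cannot be told apart.

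Promoter sequences show what lies upstream of the members on which the comparison turns. The RefSeq promoter table of GRCm38.p6 held 31 of the 42 members, in 35 windows of 250 bases upstream of a start. Windows were searched on both strands for the ROR response element half-site AGGTCA, the NF-κB site GGGNNNTTCC and the AP-1 site TGANTCA. In the sequences below, each written 5′ to 3′ on the strand of its gene and cut to the stretch that holds no annotated exon, the matching letters are in capitals. Ltb (chr17:35194257-35194438, plus strand) and Tnfrsf25 (chr4:152115684-152115933, plus strand), which were higher in K187R, held an NF-κB match on the reverse strand. A ROR half-site lay in a second window of Tnfrsf25 (chr4:152116115-152116342, plus strand), which is before a later start and within the gene. Another lay in Tnfrsf13b (chr11:61126505-61126754, plus strand), whose counts overlapped between the groups. Fasl (chr1:161788496-161788745, minus strand) and Tnfrsf23 (chr7:143685876-143686125, minus strand), which were lower in K187R, held none of these motifs. Matches were not confined to the higher members. Tnfrsf9, also lower in K187R, held an NF-κB and an AP-1 match in 1 of its windows, where an annotated exon lies. The windows of Tnfsf10 and Tnfrsf11a, both higher, held none, and Tnfrsf26, also lower, was not in the promoter table.
Ltb: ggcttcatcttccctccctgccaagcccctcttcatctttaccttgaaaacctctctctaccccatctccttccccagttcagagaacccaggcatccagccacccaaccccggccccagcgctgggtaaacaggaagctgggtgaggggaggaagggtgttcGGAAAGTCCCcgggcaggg
Tnfrsf25, first window: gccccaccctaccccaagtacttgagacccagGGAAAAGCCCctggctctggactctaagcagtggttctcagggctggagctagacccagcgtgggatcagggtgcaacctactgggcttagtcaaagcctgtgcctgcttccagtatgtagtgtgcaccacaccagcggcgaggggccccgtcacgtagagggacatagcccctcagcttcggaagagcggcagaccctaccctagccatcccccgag
Tnfrsf25, second window: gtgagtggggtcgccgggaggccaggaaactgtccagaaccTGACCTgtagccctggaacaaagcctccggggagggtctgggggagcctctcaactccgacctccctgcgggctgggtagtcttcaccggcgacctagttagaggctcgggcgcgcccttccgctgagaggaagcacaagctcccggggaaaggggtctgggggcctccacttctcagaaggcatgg
Tnfrsf13b: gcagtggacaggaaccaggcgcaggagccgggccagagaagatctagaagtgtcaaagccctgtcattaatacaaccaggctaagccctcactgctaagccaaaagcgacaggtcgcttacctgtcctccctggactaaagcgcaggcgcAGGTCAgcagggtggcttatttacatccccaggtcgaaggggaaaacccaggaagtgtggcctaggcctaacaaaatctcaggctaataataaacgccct
Fasl: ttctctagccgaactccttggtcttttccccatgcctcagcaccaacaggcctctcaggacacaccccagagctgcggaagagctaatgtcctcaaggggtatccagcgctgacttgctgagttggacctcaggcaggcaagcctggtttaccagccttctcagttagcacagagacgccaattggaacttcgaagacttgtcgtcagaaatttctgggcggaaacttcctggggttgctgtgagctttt
Tnfrsf23: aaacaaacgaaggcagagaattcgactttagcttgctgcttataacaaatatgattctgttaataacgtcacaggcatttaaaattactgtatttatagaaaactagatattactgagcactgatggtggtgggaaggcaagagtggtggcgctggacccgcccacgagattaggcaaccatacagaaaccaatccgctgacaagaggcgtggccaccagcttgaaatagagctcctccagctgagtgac
Over all 32851 windows in the table, 14% held AGGTCA, 4.65% held GGGNNNTTCC and 6.75% held TGANTCA. Of the 35 windows of members, 2 held the ROR half-site, those of Tnfrsf13b (100 bases before the start) and the second window of Tnfrsf25. The NF-κB letters were in 3, those of Ltb (87 bases), Tnfrsf25 (218 bases) and Tnfrsf9 (43 bases), and the AP-1 letters in 6. A match describes letters and is not evidence of binding, and a window without one says nothing about the factor.

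No member passed the test over all genes. In limma the adjusted p-value was under 0.05 for 0 of the 38 members and for 0% of the 16982 genes tested. On the recovered reads edgeR also called 0 members (0% of all genes), as did DESeq2 (0.183% of all genes). An unadjusted limma p-value under 0.05 was found for 8 members, 4 higher and 4 lower in K187R, which is 21.1% of those tested where the share over all genes was 4.39% (2.75% higher and 1.64% lower). Ltb, Tnfsf10 (TRAIL), Tnfrsf25 and Tnfrsf11a (RANK) were the 4 with more transcript in K187R, and Fasl, Tnfrsf9, Tnfrsf23 and Tnfrsf26 the 4 with less. For 5 members the 4 samples of one group did not overlap with those of the other, 13.2% of the members against 2.46% of all genes. Ltb was the 1 that was higher without overlap (1.47% of all genes), and Fasl, Tnfrsf9, Tnfrsf23 and Tnfrsf26 were the 4 that were lower (0.989% of all genes). Over the 38 members 24 log2 fold changes, K187R minus WT, lay above 0 and 14 below, with a median of 0.13 beside -0.0062 over all genes. The median was 0.28 over the 15 ligands, which is the value of Tnf, and 0.070 over the 22 receptors. Sample sets 1 and 2 hold unequal numbers of WT and K187R samples, so differences between sets enter these fold changes. Their part in the medians was not tested. For each member quoted with a limma p-value below, the adjusted p-value from limma was 0.921 unless another is given.

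**Figure D1:**
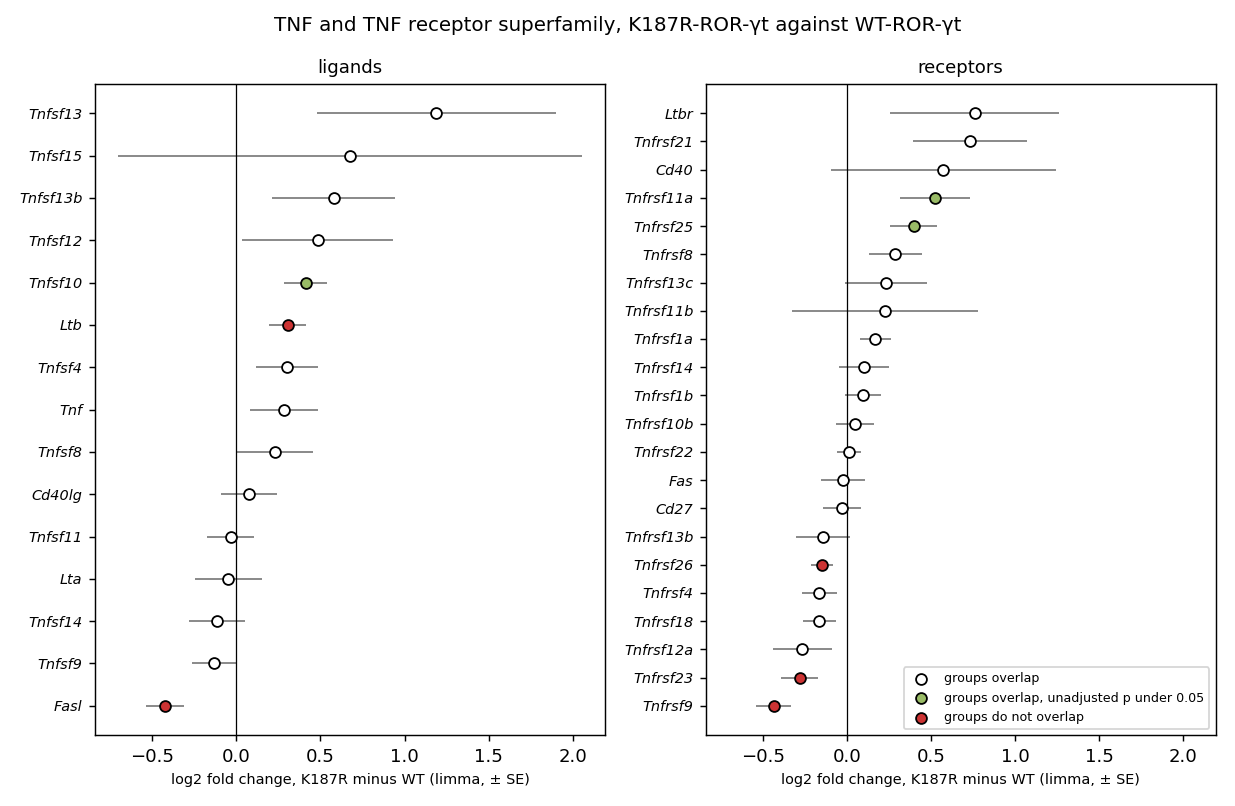
Log2 fold change (K187R minus WT, limma on log2(normalized count + 1), point) with its standard error (line) for the 15 ligands and 22 receptors whose mean reached 10 normalized counts, each panel in order of the value. Red points are members whose groups did not overlap (Ltb, Fasl, Tnfrsf9, Tnfrsf23 and Tnfrsf26), green points are other members with an unadjusted p-value under 0.05 (Tnfsf10, Tnfrsf25 and Tnfrsf11a), and the widest errors belong to members with few or uneven reads such as Tnfsf15.

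Among the ligands, lymphotoxin β (Ltb, ENSMUSG00000024399, chromosome 17, 35194439 to 35196320, plus strand), the membrane anchor of the lymphotoxin heterotrimer, was the most abundant per length and higher in K187R. Its normalized counts were 7304, 7752, 8924 and 8933 in WT replicates 1 to 4 and 9654, 9346, 12337 and 9421 in K187R replicates 1 to 4. The lowest K187R sample lay above the highest WT sample, although the gap was narrow beside the range of each group. The means were 8228 ± 829 (SD, n = 4) and 10190 ± 1438 (SD, n = 4), a ratio of 1.23. The log2 fold change was 0.30 (standard error 0.110, unadjusted p = 0.0211 from limma), and the exact two-sided permutation p was 0.0286, the smallest that 4 samples against 4 allow. Groups without overlap always give this permutation p, here and below, so it adds nothing to the absence of overlap. K187R replicate 3 stood apart from its group, and without it the log2 fold change was 0.21 (unadjusted p = 0.0513 from limma). The limma p was also 0.0621 without WT replicate 1, 0.051 without WT replicate 2, 0.0932 without sample set 1 and 0.165 without set 2, where the log2 fold change was 0.19. Within sample sets 1, 2 and 3 the difference of the log2 means was 0.26, 0.47 and 0.077.

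The genes of the other lymphotoxin and of TNF lie beside Ltb on chromosome 17, and neither differed beyond the spread of the samples. TNF (Tnf, ENSMUSG00000024401, 35199381 to 35202007, minus strand), the inflammatory cytokine that names the family, had 2227, 2819, 2543 and 2734 normalized counts in WT and 2219, 3784, 4422 and 2579 in K187R. K187R replicates 2 and 3 were above every WT sample, while replicates 1 and 4 were not. The log2 fold change of Tnf was 0.28 (standard error 0.204, unadjusted p = 0.196 from limma), and within sample sets 1 and 3 it was -0.10 and -0.084 beside 0.54 in set 2. Lymphotoxin α (Lta, ENSMUSG00000024402, 35203165 to 35205351, minus strand), which is secreted as a homotrimer or joins lymphotoxin β at the membrane, had 4279, 2428, 4719 and 2931 in WT and 3618, 3255, 3738 and 2861 in K187R. The groups overlapped throughout, with the log2 fold change at -0.048 (standard error 0.201).

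TRAIL (Tnfsf10, ENSMUSG00000039304, chromosome 3, 27317028 to 27342427, plus strand), a ligand that triggers death through Tnfrsf10b, was 1.33 times as high in K187R. The samples held 1882, 2400, 1763 and 1779 normalized counts in WT and 2777, 2906, 2568 and 2141 in K187R. K187R replicate 4 lay below WT replicate 2, and the other K187R samples lay above every WT sample. The log2 fold change was 0.41 (standard error 0.129, unadjusted p = 0.0103 from limma), with an exact permutation p of 0.0571. In sample sets 1, 2 and 3 it was 0.61, 0.19 and 0.27, and without sample set 1 the limma p was 0.172.

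Fas ligand (Fasl, ENSMUSG00000000817, chromosome 1, 161780689 to 161788495, minus strand), the ligand by which cytotoxic and activated T cells kill Fas-bearing cells, was lower in K187R. It had 520, 469, 461 and 526 normalized counts in WT and 378, 347, 330 and 420 in K187R. Every K187R sample was below every WT sample, at 369 ± 39.5 (SD, n = 4) beside 494 ± 33.9 (SD, n = 4). The log2 fold change was -0.43 (standard error 0.116, unadjusted p = 0.00475 from limma), a ratio of 0.745. The exact permutation p was the smallest possible, 0.0286, which the absence of overlap fixes. The difference was -0.37, -0.47 and -0.33 within the 3 sample sets, and the limma p stayed under 0.05 without each sample in turn (log2 fold change -0.49 to -0.37), although it was 0.0684 without sample set 2. Fas itself (ENSMUSG00000024778, chromosome 19), the death receptor for this ligand, had 2470, 2129, 2213 and 1690 in WT and 2307, 2260, 2003 and 1767 in K187R. Its groups overlapped, at a log2 fold change of -0.023 (standard error 0.131). Together the 4 NK cell markers summed to 776 to 1287 normalized counts in WT and 647 to 1140 in K187R, and the 2 CD8 T cell markers to 403 to 1025 and 387 to 1141. Most of the NK sum was Klrd1, also made by cytotoxic T cells, at 712 to 914 in WT and 607 to 770 in K187R (log2 fold change -0.28), whereas the values of Eomes (0.57) and Klrb1c (0.67) lay above 0 and Ncr1 had means of 2.11 and 4.02. The part of such cells in the difference of Fasl was not tested.

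CD30 ligand (Tnfsf8) and CD40 ligand (Cd40lg) were abundant ligands whose groups overlapped. Tnfsf8 had 7544, 13625, 6759 and 8264 normalized counts in WT and 8441, 13049, 11675 and 8417 in K187R. The 3 samples of set 2 were the 3 highest, and the log2 fold change between the groups was 0.23 (standard error 0.227). Within sample sets 1, 2 and 3 the difference was 0.24, -0.14 and 0.026. With the sample set as a factor in limma the log2 fold change was 0.043. Cd40lg, through which helper T cells license B cells and dendritic cells, had 1097, 1246, 1111 and 900 in WT and 1009, 1379, 1369 and 881 in K187R (log2 fold change 0.074, standard error 0.166). The remaining ligands with a narrower spread were OX40 ligand (Tnfsf4, log2 fold change 0.30), RANKL (Tnfsf11, -0.034), LIGHT (Tnfsf14, -0.12) and 4-1BB ligand (Tnfsf9, -0.13), each with overlapping groups.

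**Figure D2:**
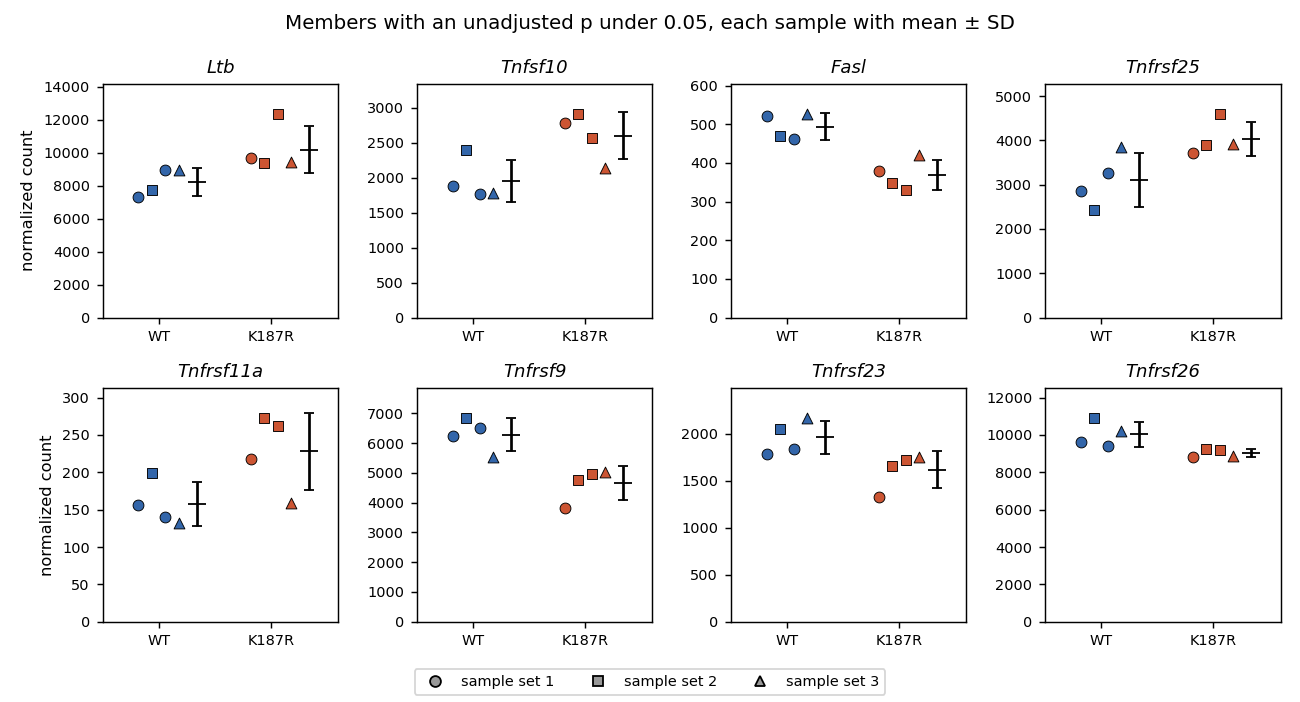
Normalized count in each sample (points, blue for WT and red for K187R, the shape giving the sample set) with the mean ± SD of the 4 samples for the 8 members with an unadjusted limma p-value under 0.05. The axes start at 0. The K187R points of Fasl, Tnfrsf9, Tnfrsf23 and Tnfrsf26 lie below all WT points and those of Ltb above them, while those of Tnfsf10, Tnfrsf25 and Tnfrsf11a overlap.

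Of the receptors, 4-1BB (Tnfrsf9, ENSMUSG00000028965, chromosome 4, 150914562 to 150946102, plus strand), a costimulator induced on activated T cells, had the smallest unadjusted p-value of the family. It had 6243, 6828, 6496 and 5524 normalized counts in WT and 3805, 4767, 4976 and 5022 in K187R. The groups did not overlap, and K187R replicate 1 was the lowest of the 8 samples. The means were 6273 ± 554 (SD, n = 4) and 4643 ± 569 (SD, n = 4), a ratio of 0.738. The log2 fold change was -0.44 (standard error 0.106, unadjusted p = 0.00236 from limma; exact permutation p 0.0286), and it ranged from -0.50 to -0.35 without each sample in turn. It was -0.74, -0.49 and -0.14 within sample sets 1, 2 and 3, and the limma p was 0.0387, 0.0157 and 0.00169 with each of these sets left out. With the sample set added to the model, DESeq2 gave an adjusted p of 0.00282 for Tnfrsf9 and called 3 members (0.848% of all genes). This DESeq2 fit was chosen after the data were seen, and the sets were found from these data. In limma and edgeR the same term gave 0 called members (0.00589% of all genes in each).

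DR3 (Tnfrsf25, ENSMUSG00000024793, chromosome 4, 152115934 to 152120119, plus strand), the receptor for the TL1A cytokine and a costimulator of Th17 cells, was 1.32 times as high in K187R. The counts were 2854, 2423, 3268 and 3859 in WT and 3720, 3906, 4593 and 3913 in K187R. WT replicate 4 overlapped with K187R, and the other WT samples lay below every K187R sample. The log2 fold change was 0.40 (standard error 0.138, unadjusted p = 0.0177 from limma), with an exact permutation p of 0.0571. It was 0.28, 0.81 and 0.020 within sample sets 1, 2 and 3, so that the 2 samples of set 3 hardly differed. The limma p was 0.0524 without K187R replicate 3, 0.076 without sample set 1 and 0.195 without set 2. RANK (Tnfrsf11a, ENSMUSG00000026321, chromosome 1), the receptor for RANKL, was less abundant, with 157, 199, 140 and 132 in WT and 218, 272, 262 and 159 in K187R. Its log2 fold change was 0.52 (standard error 0.209, unadjusted p = 0.0332 from limma; exact permutation p 0.0571), and in 6 of the 8 fits that left out 1 sample its p was above 0.05.

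Tnfrsf22, Tnfrsf23 and Tnfrsf26 are mouse receptors of similar sequence that lie next to each other on chromosome 7, and Tnfrsf22 and Tnfrsf23 are known as decoys for TRAIL. Tnfrsf23 (ENSMUSG00000037613, 143665809 to 143685872, minus strand) had 1787, 2056, 1844 and 2165 normalized counts in WT and 1325, 1663, 1725 and 1757 in K187R. All K187R samples were below all WT samples, with a log2 fold change of -0.28 (standard error 0.111, unadjusted p = 0.0301 from limma). The limma p rose to 0.0677 without WT replicate 2, 0.0729 without WT replicate 4, 0.081 without K187R replicate 1, 0.0791 without sample set 2 and 0.0553 without set 3. Its differences within sample sets 1, 2 and 3 were -0.45, -0.28 and -0.30. Tnfrsf26 (ENSMUSG00000045362, 143607659 to 143628722, minus strand) had 9615, 10887, 9423 and 10203 in WT and 8795, 9255, 9189 and 8872 in K187R. The groups again did not overlap, but the difference was small, at -0.15 (standard error 0.0665, unadjusted p = 0.0491 from limma), and p was 0.0609 with TMM normalization, 0.0653 in edgeR and between 0.0541 and 0.139 in 7 of the 8 fits that left out 1 sample. Tnfrsf22, between them, had 1696 to 1772 in WT and 1657 to 1874 in K187R, a log2 fold change of 0.012. How reads that match more than 1 of these paralogs were counted is not stated, so the split between them is uncertain.

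For both receptors of TNF the highest of the 8 samples was under 1.5 times the lowest. TNFR2 (Tnfrsf1b), the TNF receptor without a death domain that T cells use for costimulation, had 13559, 15059, 14871 and 18699 normalized counts in WT and 15222, 15357, 17961 and 17572 in K187R (log2 fold change 0.094, standard error 0.107). TNFR1 (Tnfrsf1a), the death domain receptor for TNF, had 2107, 2145, 2262 and 2630 in WT and 2393, 2424, 2693 and 2725 in K187R (log2 fold change 0.17, standard error 0.0920). Both overlapped, and TNFR1 was higher in K187R within each of the 3 sample sets, by 0.13, 0.25 and 0.051.

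OX40 and GITR, costimulators of effector and regulatory T cells, had overlapping groups. OX40 (Tnfrsf4) had 5458, 4475, 6177 and 5318 in WT and 4382, 4604, 5204 and 4835 in K187R (log2 fold change -0.17, standard error 0.103), with a difference of 0.13 in the other direction within sample set 2. GITR (Tnfrsf18) had 3459, 3025, 4010 and 3280 in WT and 3089, 2769, 3111 and 3264 in K187R (log2 fold change -0.17, standard error 0.0977), and 27.2% of its exonic bases overlap another gene. CD27, HVEM (Tnfrsf14) and TACI (Tnfrsf13b), which bind CD70, LIGHT and the B cell factors BAFF and APRIL, had log2 fold changes of -0.033, 0.10 and -0.14. Over the 8 samples CD27 had 6881 to 9699 normalized counts, HVEM 4052 to 6263 and TACI 5437 to 8307, with overlapping groups. Groups also overlapped for CD30 (Tnfrsf8, log2 fold change 0.29), the TRAIL death receptor (Tnfrsf10b, 0.046), the TWEAK receptor Fn14 (Tnfrsf12a, -0.27) and the BAFF receptor (Tnfrsf13c, 0.23).

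Levels can be compared between genes once divided by length, as reads per kilobase of exon scaled to the reads of the sample (RPKM), computed from the recovered reads. The ligands with the highest mean level over the 8 samples were Ltb at 99.4 RPKM, Tnfsf8 at 41.8, Lta at 41.0, Tnf at 29.1 and Cd40lg at 14.7. The receptors were led by Tnfrsf1b at 68.8 RPKM, Tnfrsf4 at 60.5, Tnfrsf14 at 57.9, Cd27 at 56.3, Tnfrsf26 at 48.5, Tnfrsf13b at 37.3, Tnfrsf18 at 34.9 and Tnfrsf9 at 32.8. The ranges over samples of Tnfsf8, Lta and Tnf overlapped, as did those of each receptor and the next among these 8, so the order of these neighbours is not resolved. Of these 5 ligands Ltb lay above the others in every sample and Cd40lg below them. Several partners stood far apart in level. Ltb was at 99.4 RPKM and its receptor Ltbr, a receptor of stromal and myeloid cells, at 1.58, while Cd40lg was at 14.7 and Cd40, found on B cells and dendritic cells, at 1.28. The reverse held for Tnfrsf25 at 25.7 RPKM beside Tnfsf15 (TL1A) at 0.386, for Tnfrsf13b at 37.3 beside Tnfsf13b (BAFF) at 0.227, and for Tnfrsf9 at 32.8 beside Tnfsf9 at 2.69. Tnf, at 29.1 RPKM, stood between its receptors, Tnfrsf1a at 15.3 and Tnfrsf1b at 68.8.

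**Figure D3:**
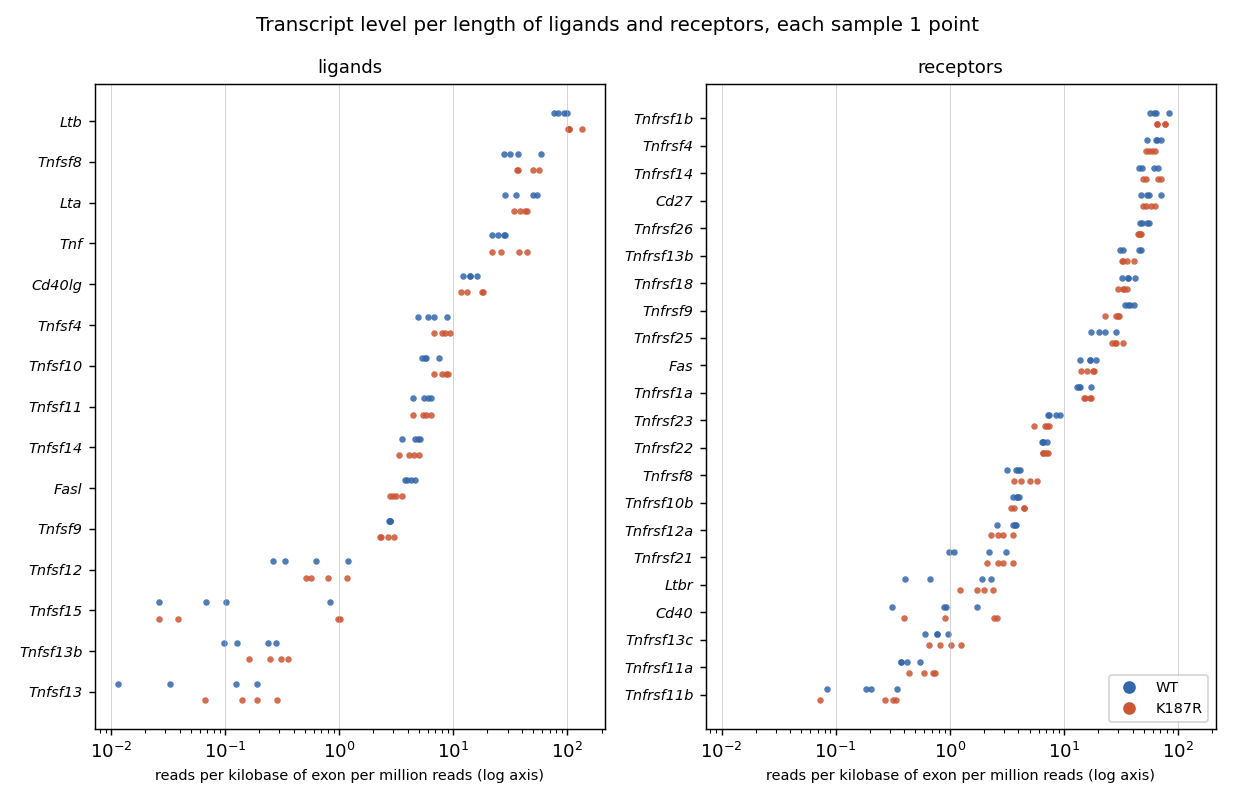
RPKM (horizontal log axis) in each of the 4 WT (blue) and 4 K187R (red) samples for 15 ligands and 22 receptors, ordered by their mean. Ltb leads the ligands at a mean of 99.4 and Tnfrsf1b the receptors at 68.8. The points of Tnfsf15, Tnfsf13, Cd40, Tnfrsf11b and Ltbr spread widely among samples of the same group.

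Some members varied widely over the 8 samples. The highest of the 8 was at least 3 times the lowest for 9 of the 38 members (23.7%, beside 15.02% of all genes tested), and under 1.5 times for 11 (28.9%, beside 45.8%). Those 9 were Tnfsf15, Tnfsf13, Cd40, Ltbr, Tnfrsf11b, Tnfsf12, Tnfrsf21, Tnfsf13b and Tnfsf13os. Tnfsf15 (TL1A), the ligand of DR3 and known from myeloid and endothelial cells, spanned 40.0 times between samples. Its counts were 21.4, 169, 14.4 and 5.23 in WT and 7.91, 209, 199 and 5.33 in K187R. The 3 samples with 169 or more were those of set 2, 1 from WT and 2 from K187R, and both samples of set 3 were near the floor of detection.

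Cd40 had 189, 363, 198 and 62.7 normalized counts in WT and 189, 501, 544 and 81.8 in K187R, again highest in set 2 and lowest in set 3. Its log2 fold change was 0.57 (standard error 0.672). B cell markers were also lowest in set 3, at a sum of 341 and 407 beside 1106 to 1749 elsewhere. They were not highest in set 2, where the sums were 1388, 1561 and 1552. The highest sum, 1749, was in K187R replicate 1, where Cd40 was at 189. Of the myeloid markers, Cd14, Itgax and Csf1r were highest in the samples of set 2. In WT replicate 2 and K187R replicates 2 and 3, Cd14 had 869, 947 and 1058, and Itgax 1208, 1629 and 1930. Lyz2, Itgam, Cd68 and Fcgr3 were instead highest in set 3, and Adgre1 in WT replicate 2 lay below both samples of set 3. The part of B cells or myeloid cells in the levels of Cd40 and Tnfsf15 was not tested.

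Ltbr had 59.4, 278, 98.9 and 316 in WT and 177, 249, 343 and 284 in K187R, with a log2 fold change of 0.76 (standard error 0.503). Its 3 lowest samples were those of set 1. DR6 (Tnfrsf21), a death domain receptor, had 253, 557, 283 and 751 in WT and 529, 662, 730 and 892 in K187R. It was higher in K187R within each sample set, by 0.98, 0.32 and 0.25, and its log2 fold change was 0.73 (standard error 0.338, unadjusted p = 0.0577 from limma). BAFF (Tnfsf13b), which maintains B cells, had 54.7, 118, 42.3 and 96.7 in WT and 67.8, 130, 149 and 102 in K187R. TWEAK (Tnfsf12) had 25.0, 57.7, 32.1 and 106 in WT and 47.4, 52.1, 73.7 and 107 in K187R, and 48.3% of its exonic bases overlap the readthrough gene Tnfsfm13.

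Ltbr, Tnfrsf21, Tnfsf13b and Tnfsf12 were lowest in WT replicates 1 and 3. The myeloid marker sum was 21971 and 22389 in those samples and 37042 in K187R replicate 1, the third sample of set 1, and 46223 to 67132 in the other 5 samples. Most of that sum was Lyz2. Csf1r, Itgam, Adgre1, Fcgr3 and Itgax were also lowest in WT replicates 1 and 3, whereas Cd68 and Cd14 were not. Cd14 had 558 and 676 there, 376 in K187R replicate 1, and 448 and 407 in replicate 4 of WT and K187R. No myeloid marker was at 0 in any sample, and the part of myeloid cells in the levels of these 4 members was not tested.

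**Figure D4:**
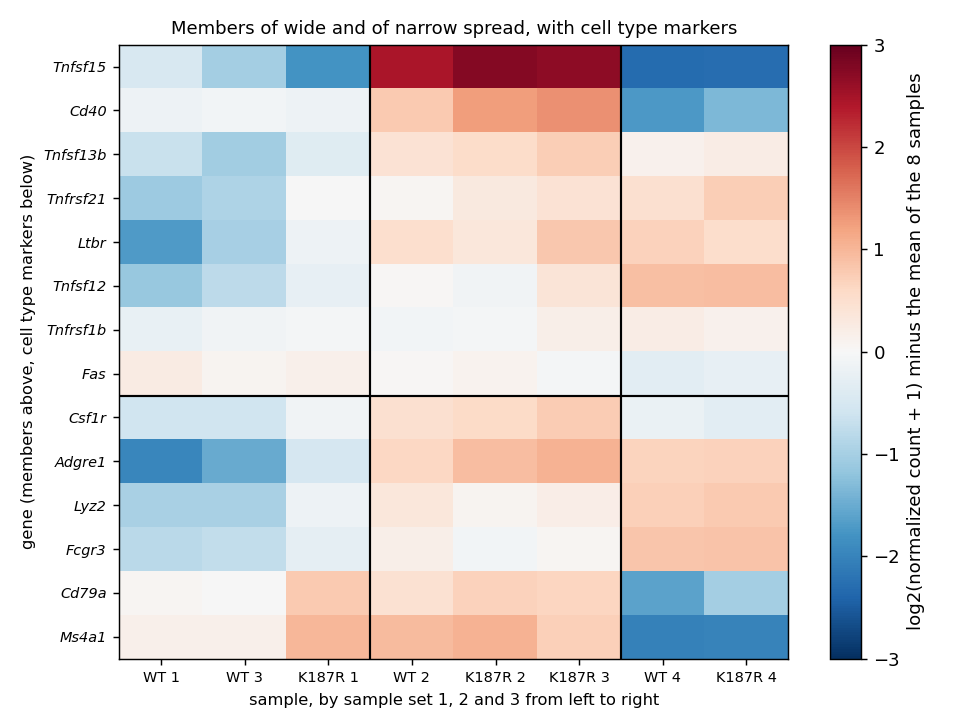
Colour gives log2(normalized count + 1) minus the mean of the 8 samples, for 8 members (upper rows) and 6 myeloid or B cell markers (lower rows), in samples ordered by sample set. The markers shown are Csf1r, Adgre1, Lyz2 and Fcgr3 of the 8 myeloid markers, and Cd79a and Ms4a1 of the 6 B cell markers. Of the myeloid markers not shown, Itgam and Itgax are lowest in WT replicates 1 and 3, and Cd68 and Cd14 are not. Tnfsf15 and Cd40 are highest in the 3 samples of set 2 and lowest in set 3, Ltbr, Tnfrsf21 and Tnfsf12 are lowest in WT replicates 1 and 3, and Tnfrsf1b and Fas vary little.

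Because each sample set held both groups, the groups were also compared within sets. In 12 of the 38 members (31.6%, beside 13.9% of all genes) all K187R samples lay on the same side of all WT samples in every set. Higher were Ltb, Tnfsf10, Tnfsf13b, Tnfrsf25, Tnfrsf1a, Tnfrsf21, Tnfrsf11a and Tnfrsf13c. Lower were Fasl, Tnfrsf9, Tnfrsf23 and Tnfrsf26. Groups without overlap over all 8 samples, as for 5 of these members and 2.46% of all genes, meet this by definition. Set 3 holds 1 sample of each group, and the sets were found from these data. The sum of the B cell markers was also higher in K187R within every set. In set 1 it was 1749 beside 1106 in both WT samples, in set 2 1561 and 1552 beside 1388, and in set 3 407 beside 341. The sums of the T cell, myeloid, NK cell and CD8 T cell markers did not separate in this way. The part of the cell mixture in these members was not tested.

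Low members were Cd70, Tnfsf18 (GITR ligand), Ngfr and Tnfrsf19, each with a mean under 10. Cd70 had 1.78 to 9.04 normalized counts over the 8 samples and Tnfrsf19 4.21 to 17.8, and Tnfsf18 and Ngfr each had a sample at 0. APRIL (Tnfsf13) was barely above this limit, at 1.19, 19.2, 3.38 and 12.2 in WT and 6.78, 14.1, 19.0 and 28.5 in K187R. Of its exonic bases 60.0% overlap other genes. Tnfsf13os had 5.94 to 21.1 normalized counts and shares 22.8% of its exonic bases with other genes, so without stated strand its reads cannot be told from theirs.

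Genes that carry the signal of these receptors had an unadjusted p-value under 0.05 about as often as all genes. Of 41 adaptors, kinases, ubiquitin enzymes, death effectors and sheddases, 0 passed in limma (0 also in edgeR and DESeq2), 2 had an unadjusted p-value under 0.05, both higher (4.88%, beside 4.39% of all genes), 1 had groups without overlap (2.44%, beside 2.46%), and the median log2 fold change was 0.00052. Bid, which links death receptors to mitochondria, had 497, 608, 477 and 634 normalized counts in WT and 636, 665, 703 and 646 in K187R. Its groups did not overlap, by a narrow gap of 634 against 636, with a log2 fold change of 0.27 (standard error 0.118, unadjusted p = 0.0484 from limma). Rhbdf1, a partner of the sheddase ADAM17, had 16.6, 29.8, 22.0 and 26.1 in WT and 47.4, 40.1, 42.1 and 27.6 in K187R, with a log2 fold change of 0.71 (standard error 0.268, unadjusted p = 0.0248 from limma).

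Of 17 known NF-κB target genes, 0 passed in limma, edgeR or DESeq2 and 0 had an unadjusted limma p-value under 0.05 (beside 4.39% of all genes). Their log2 fold changes lay above 0 for 13 and below for 4, with a median of 0.18. Over all 16982 genes tested, 8224 lay above 0 and the median was -0.0062. The unequal numbers of WT and K187R samples in the sample sets enter these fold changes too, and their part was not tested. Nfkbia, the inhibitor that NF-κB induces, had 7358, 8005, 8117 and 6682 in WT and 7186, 9062, 11392 and 7061 in K187R, with its highest values in K187R replicates 2 and 3 and a log2 fold change of 0.18.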

How the data were processed

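Transcripts were measured by RNA seq in 4 WT and 4 K187R samples, grouped by their labels. The paper names poly-A selection with a KAPA kit and the labels another library kit. The authors trimmed reads with Cutadapt, aligned them with HiSat2 to GRCm38 and counted them with featureCounts on GENCODE M15; strand use is not stated. Each deposited value is a signal, the reads of a gene divided by the size factor of its sample. Whole reads were recovered (100% within 0.01 of a read, largest deviation 0.000296). Since the deposited values are not raw counts, the main test was limma (lmFit, eBayes with trend) on log2(normalized count + 1). It covered 16982 genes whose mean reached 10, with Benjamini-Hochberg adjustment and a threshold of 0.05. The log2(value + 1) scale understates the change of low genes. For single members the 8 samples were permuted exactly, two-sided. Methods were tested on simulated data. No sample column was left out. Another marker result is not reported here.

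The members, the lists of pathway, target and marker genes, and the idea of sample sets were chosen with earlier results of these data known. Members named with values are those without overlap or with an unadjusted p under 0.05, the 5 ligands and 8 receptors highest per length, the 3 ligands and 3 receptors of largest spread with a mean of at least 50, and Tnf, Lta, Ltb, Fasl, Cd40lg, Tnfrsf1a, Tnfrsf1b, Fas, Tnfrsf4, Tnfrsf9, Tnfrsf18 and Tnfrsf25. Others named were chosen after their values were seen. Coordinates, exon lengths and overlaps are from GRCm38 with GENCODE M21, which held all 42 members, and promoters from the RefSeq table of GRCm38.p6. Alternatives were other pseudocounts, filters, normalizations and eBayes without trend, edgeR and DESeq2 on the recovered reads, the replicate number as a block, the sample set as a factor, and samples left out. Models were fitted in R (4.3.3) with DESeq2 (1.42.0), limma (3.58.1) and edgeR (4.0.16), and other steps ran in Python (3.11.15) with scipy (1.17.1), pandas (2.3.3), matplotlib (3.10.9) and numpy (2.4.6).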

Additional observations from a re-analysis of the deposited data

Results flagged for a closer look

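In K187R replicate 3 the normalized count of Ltb was 12337, and the gap to the nearest of the other 3 K187R samples was 0.883 of the range of the group on the log2 scale, past Dixon's limit for 4 samples. Of 52 groups of 4 samples examined, 1 was past its limit, where chance gives about 2.6. The same sample was also the highest of the 8 for Tnf, Cd40, Ltbr and Tnfrsf25.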

How the results depend on the processing

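The number of members past an adjusted p of 0.05 was 0 under every alternative run except DESeq2 with the sample set, chosen after seeing the data, which gave 3 (Tnfrsf21, adjusted p 0.0351, higher; Tnfrsf9, 0.00282, and Tnfrsf23, 0.0132, lower; 0.848% of all genes) and called 1 NF-κB target, Ccl5. Members with an unadjusted p under 0.05 numbered 4 to 13 with 1 sample left out (5 without WT replicate 1, 13 without WT replicate 2, 4 without K187R replicate 3; 1.92%, 8.52% and 2.28% of all genes), and 3, 3 and 9 without sample sets 1, 2 and 3, also chosen after seeing the data (0.693%, 1.97% and 11.6% of all genes). Members without overlap numbered 5 to 11 with 1 sample left out (11 without WT replicate 2, 8 without WT replicate 4; 7.18% and 11.9% of all genes), 7, 13 and 10 without sample sets 1, 2 and 3 (9.1%, 13.7% and 17.4% of all genes) and 12 within every set (13.9%). Groups that are apart stay apart when samples are left out or compared within sets, so these counts could not fall below 5. Same-numbered samples deviated together for numbers 1, 2 and 4 (correlation 0.592, 0.662 and 0.628) and not for number 3 (-0.0915), so the numbers were not taken to pair the samples. Of the 4 WT samples, 3 correlated best with their own number. With the replicate block 17 members had an unadjusted p under 0.05, 10 higher and 7 lower, as did 12% of all genes, and the block changed no adjusted call.

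Directions turned for members whose values lay near 0 or rested on 1 sample set. With the sample set as a factor the log2 fold change was 0.067 for Lta, -0.0044 for Cd40lg, -0.28 for Tnfsf15, -0.014 for Tnfrsf14 and 0.010 for Fas, in DESeq2 with the set 0.064, -0.0028, -0.11, -0.014 and 0.011, and in edgeR with the set 0.064, -0.0026, -0.035, -0.014 and 0.012. Without sample set 1 it was 0.29 for Lta, -0.076 for Tnfsf12, 0.078 for Tnfrsf13b, -0.018 for Tnfrsf14, 0.076 for Fas and -0.033 for Ltbr. Without sample set 2 it was -0.059 for Tnf, -0.13 for Cd40lg, -0.78 for Tnfsf15, -0.060 for Tnfrsf14 and -0.097 for Cd40, and without set 3 it was 0.038 for Cd27. Quantile normalization gave 0.0052 for Fas. With 1 sample left out, ranges that crossed 0 were -0.22 to 0.10 for Lta, -0.018 to 0.20 for Cd40lg, -0.13 to 1.61 for Tnfsf15, -0.11 to 0.057 for Cd27, -0.13 to 0.054 for Fas, -0.12 to 0.065 for Tnfsf11, -0.023 to 0.036 for Tnfrsf22, -0.012 to 0.12 for Tnfrsf10b and -0.15 to 0.72 for Tnfrsf11b. The causes were not tested. Of the values under alternatives of members named by the rule, 580 kept direction and side of the threshold, 41 turned and 3 newly passed. Cd70, Tnfsf18, Ngfr and Tnfrsf19 rest on few reads, so that no fold is resolved at this depth.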

Other observations

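Genes of the pathway and target lists that followed the sample sets more than the form of ROR-γt were picked after their values were seen and are given as values. Traf6, the adaptor that RANK and CD40 use, had 24155, 22991 and 20396 normalized counts in the samples of set 1 (WT replicates 1 and 3, K187R replicate 1). In the other 5 samples it had 13908 to 15546. The chemokine gene Ccl5 had 934, 1061 and 1455 in the samples of set 2 (WT replicate 2, K187R replicates 2 and 3) and 174 to 328 elsewhere. Cxcl10, an interferon-inducible chemokine, had 209, 261 and 283 in set 2, and 33.1 and 31.1 in set 3. Tnfaip2, a TNF-induced gene, had 3930, 4406 and 5054 in set 2 and 1234 to 1622 in the other samples. These are the samples in which Tnfsf15 and Cd40 were highest.

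Tnfrsf11b, the soluble decoy osteoprotegerin, also varied with the sets, at 13.9 and 12.4 in the 2 samples of set 3 and 32.1 to 59.6 in the others.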
